A study of Drosophila melanogaster with 3 samples.

Results

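MicroRNA genes encode short hairpins from which a mature microRNA (miRNA) of little more than 20 bases is cut. They were taken here as the genes of the dm6 Ensembl models whose symbol starts with mir-, a rule that also takes in bantam (mir-ban) and let-7 (mir-let7), and they number 262 of 17873 genes. The chromosome arms that carry peaks held 260 of them, and the other 2 (mir-10404-1 and mir-10404-2) lie in a ribosomal DNA scaffold. Their spans ran from 50 to 174 bp with a median of 92 bp. Of the 262 genes, 112 were intronic, lying inside a same-strand gene and free of its exons in at least 1 transcript, 72 overlapped an exon of such a host, 27 lay only inside a gene of the other strand, and 51 were intergenic. Joining same-strand genes with gaps of up to 10 kb gave 205 loci, of which 22 were clusters holding 79 genes and 183 were single genes.

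The peaks come from chromatin immunoprecipitation and sequencing (ChIP-seq) with an antibody to GFP, in transgenic flies carrying the Runx-family factor lozenge (lz) with GFP at its C-terminus. The material was 3 biological replicates of whole white prepupae of pooled sex, a single group with no second condition and no control sample analysed here. Since whole animals were used, the cells in which a site was bound cannot be told apart. A miRNA is transcribed within a longer primary transcript, trimmed in the nucleus to a hairpin and cut by Dicer, and it then guides an Argonaute protein to messenger RNAs that pair with its seed, bases 2 to 8 of the mature sequence. Intronic miRNAs are commonly made from the transcript of their host gene, while many others have a long noncoding RNA (lncRNA) as their primary transcript, so the promoter that serves a miRNA can lie far from its hairpin. At the onset of metamorphosis several fly miRNAs, among them let-7, are switched on under the steroid hormone ecdysone.

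A gene was counted as having a peak when a peak summit lay in its span or within 1 kb of it. The mature arms below belong to 10 of the 27 genes with such a peak in the thresholded set, and they show which of these genes share a seed, given in capitals. They were read from the RefSeq annotation and genome, Release 6, the sequence of dm6.
mir-275 3′ arm: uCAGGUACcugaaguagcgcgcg
mir-305 5′ arm: aUUGUACUucaucaggugcucug
mir-92a 3′ arm: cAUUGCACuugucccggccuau
mir-92b 3′ arm: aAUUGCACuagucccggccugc
mir-2a-1 3′ arm: uAUCACAGccagcuuugaugagc
mir-2b-2 3′ arm: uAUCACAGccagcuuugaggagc
mir-279 3′ arm: uGACUAGAuccacacucauuaa
mir-282 5′ arm: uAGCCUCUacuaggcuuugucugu
mir-318 3′ arm: uCACUGGGcuuuguuuaucuca
mir-995 3′ arm: uAGCACCAcaugauucggcuu
The seed AUUGCAC was shared by 6 genes, of which 2, mir-92a and mir-92b, had a peak. The seed AUCACAG, that of the miR-2 family, was carried by 14 genes, of which 3 had a peak: mir-2a-1, mir-2b-2 and mir-308. The seed GACUAGA was carried by 3 genes (mir-279, mir-286 and mir-996), and only mir-279 had a peak in the thresholded set. Each of these seeds had genes with a peak and genes without, beside 10.3% of all 262 miRNA genes with one. The peak of mir-2a-1 and mir-2b-2 is 1 shared peak, and mir-92a and mir-92b form 1 cluster with 2 peaks. The counts per seed are too small to set against the share of all miRNA genes.

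The summit windows below run from 50 bp before to 50 bp after the summit on the plus strand of dm6 and are those of the strongest peak within reach of a miRNA gene, of the next strongest, and of peaks that hold a searched motif, which is in capitals. The last is the promoter of the lncRNA that hosts mir-279, described further on.
mir-275 and mir-305, chr2L:7425299-7425399: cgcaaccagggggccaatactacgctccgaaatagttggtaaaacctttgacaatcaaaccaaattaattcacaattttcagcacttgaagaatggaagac
mir-92a, chr3R:25646971-25647071: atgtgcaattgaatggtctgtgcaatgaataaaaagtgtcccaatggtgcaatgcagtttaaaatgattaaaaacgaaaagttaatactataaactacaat
mir-275 and mir-305, the peak between them and muc, chr2L:7426600-7426700: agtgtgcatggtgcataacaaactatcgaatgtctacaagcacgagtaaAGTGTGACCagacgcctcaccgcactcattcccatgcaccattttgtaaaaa
mir-994 and mir-318, chr3R:10407272-10407372: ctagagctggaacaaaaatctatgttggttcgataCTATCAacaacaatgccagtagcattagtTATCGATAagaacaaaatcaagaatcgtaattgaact
mir-995, chr3R:20735491-20735591: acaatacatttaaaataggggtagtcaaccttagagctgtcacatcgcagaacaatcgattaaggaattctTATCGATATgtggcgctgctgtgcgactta
mir-4962, chrX:3777375-3777475: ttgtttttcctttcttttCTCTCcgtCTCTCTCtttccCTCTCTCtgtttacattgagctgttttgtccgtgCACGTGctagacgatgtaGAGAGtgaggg
lncRNA:CR31044 promoter, chr3R:29214404-29214504: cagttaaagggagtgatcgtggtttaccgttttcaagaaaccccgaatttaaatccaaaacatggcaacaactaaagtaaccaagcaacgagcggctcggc

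The share of miRNA genes with an lz-eGFP peak close by was near that of the bases of the chromosome arms, given below. The authors' thresholded set of 8048 peaks, cut by the irreproducible discovery rate, placed a summit within 1 kb of 27 of the 262 genes (10.3%, 95% Clopper-Pearson interval 6.9 to 14.6, for counting error only). These genes formed 23 loci and shared 27 distinct peaks. With each replicate cut to its own 8048 highest peaks, the counts were 29 genes in replicate 1, 24 in replicate 2 and 22 in replicate 3, a mean of 25 ± 3.61 genes or 9.54% ± 1.38 (SD, n = 3). The same rule called 34.8% of the other 17611 genes in the thresholded set, and 36.7%, 31.7% and 34.6% in replicates 1, 2 and 3. Those genes are longer than miRNA genes and offer more room for a summit. Among the 783 other genes of at most 200 bp the share was 16.2% in the thresholded set and 16.5%, 12.5% and 14.8% in replicates 1, 2 and 3 (14.6% ± 1.99, SD, n = 3). The miRNA share was below that of these short genes in the thresholded set and in each of the replicates. Transfer RNA genes stood at 14.7% and small nucleolar RNA genes at 25.3%. Of the bases of the arms, 10.7% lay as near to a thresholded summit as a miRNA gene of median span would need. That share is close to the 10.3% of miRNA genes and inside their interval.

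Among miRNA genes, the nearness of another gene's transcription start site (TSS) went with the share. Starts of miRNA genes were not counted as such a TSS, while starts of the other short genes were. Of the 91 miRNA genes with such a TSS within 1 kb, 18 had a peak (19.8%, interval 12.2 to 29.4), and in the replicates 18, 16 and 15 of them did. Among other short genes with such a TSS the share was 18.4% (113 of 615). Of the 169 miRNA genes with no other TSS within 1 kb, 9 had a peak (5.33%, interval 2.46 to 9.87), with 11, 8 and 7 in the replicates, against 10.4% (14 of 134, interval 5.83 to 16.9) of the other short genes so placed. Both kinds of gene thus had peaks at similar shares beside a TSS, and away from one the intervals of the miRNA genes and of the other short genes overlapped. The other short genes were mixed. Transfer RNA genes stood at 16.2% with such a TSS and 14.7% without, and small nucleolar RNA genes at 29.6% and 0%. Only 35.0% of miRNA genes on the arms had a TSS this near, against 82.1% of the other short genes. These shares are not like for like. A miRNA gene could not count a neighbouring miRNA gene, while another short gene could count a neighbour of its own kind.

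**Figure D1:**
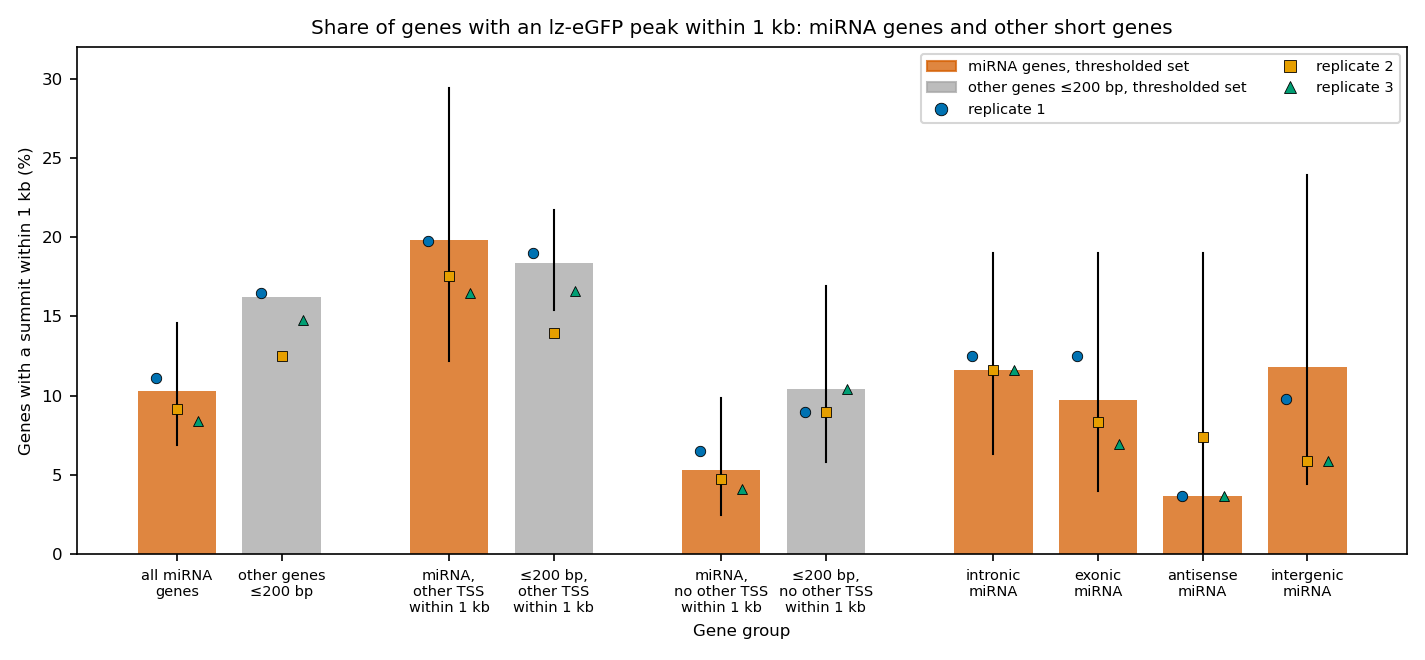
Share of genes (%) with an lz-eGFP summit within 1 kb, for miRNA genes (orange) and other genes of at most 200 bp (grey). Groups are all genes of each kind, genes by the nearness of another gene's TSS, and the 4 classes of miRNA gene. Starts of miRNA genes do not count as such a TSS. Bars are the thresholded set, vertical lines 95% Clopper-Pearson intervals (not drawn for all other short genes), and points the 3 replicates; miRNA genes with another TSS within 1 kb stood at 19.8% and those without at 5.33%.

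By class, 13 of the 112 intronic genes had a peak (11.6%, interval 6.33 to 19), as did 7 of the 72 exonic ones (9.72%), 1 of the 27 antisense ones (3.7%) and 6 of the 51 intergenic ones (11.8%, interval 4.44 to 23.9). In replicates 1, 2 and 3 the intronic counts were 14, 13 and 13 genes, and the intergenic counts 5, 3 and 3. The intronic count was thus similar across replicates, though not always from the same genes. For example, mir-4911, mir-4944 and mir-4949 were reached in replicate 2 alone. The intergenic share of the thresholded set stood above that of any single replicate. The 4 intervals overlapped one another, and no test between classes was made. They treat each gene as separate, though the 6 intergenic genes with a peak lie in 5 loci. Per arm, 7 of 56 genes on 2L had a peak, 6 of 55 on 2R, 2 of 31 on 3L, 7 of 58 on 3R, 5 of 58 on X and 0 of 2 on chromosome 4.

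The longer lists of calls reached more genes. The pooled list of 30000 calls, which includes background regions, had a summit within 1 kb of 92 miRNA genes (35.1%) in 75 loci, through 130 distinct calls, against 59.7% of other genes and 41.8% of other short genes. The full replicate lists of 30000 calls reached 104, 102 and 85 genes. No call of any list lay within 1 kb of 108 miRNA genes. The distance from a gene to its nearest thresholded summit had a median of 5757 bp for miRNA genes and 4356 bp for the other short genes.

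**Figure D2:**
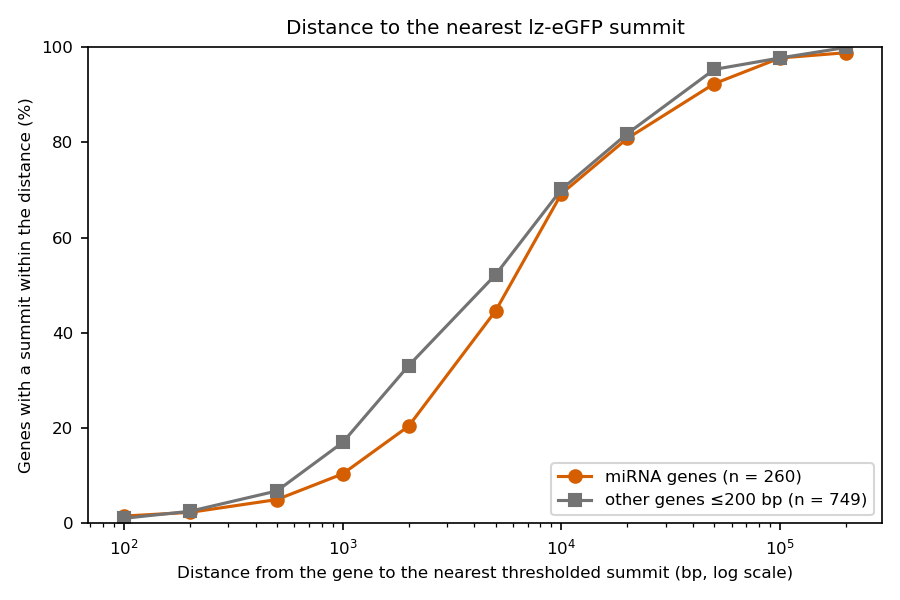
Cumulative share of genes (%) whose nearest thresholded summit lies within the distance on the horizontal axis (bp, log scale), for the 260 miRNA genes on the arms (orange circles) and the 749 other genes of at most 200 bp there (grey squares). The curve of the miRNA genes ran below the other from 200 bp to 50 kb, with 20.4% against 33.1% at 2 kb and 69.2% against 70.1% at 10 kb.

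The 27 distinct peaks at miRNA genes were mostly of middle to low strength. Each peak was ranked by the authors' signal value within its list, rank 1 being the highest. Their median rank in the thresholded set was 4735, against 4024 for the whole set, and 10 of the 27 were in the stronger 4024 peaks. Their signal ran from 92 to 665 with a median of 155, against a median of 179 and a highest value of 4748 over all thresholded peaks. Among the 8048 highest peaks of a replicate, a summit within 100 bp was present in every replicate for 15 of the 27 (55.6%), against 65% of all thresholded peaks. By that limit, 7 of the rest had no match in 1 replicate, 4 in 2 and 1 in any of them. In the full replicate lists of 30000 calls, 22 of the 27 (81.5%) had a match in every replicate, 4 in 2 replicates and 1 in 1, against 86% in every replicate over all thresholded peaks. Ranks per replicate below are within the 8048 highest peaks unless the full list is named. In the thresholded set the 15 ranked from 565 to 4772 and the other 12 from 4805 to 8024, so each peak without a match among the highest 8048 of some replicate was weaker there than the 15. At the gene level, 16 genes kept a peak when only summits matched in replicates 2 and 3 were used, and 18 when replicate 2 or replicate 3 was the one left out.

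**Figure D3:**
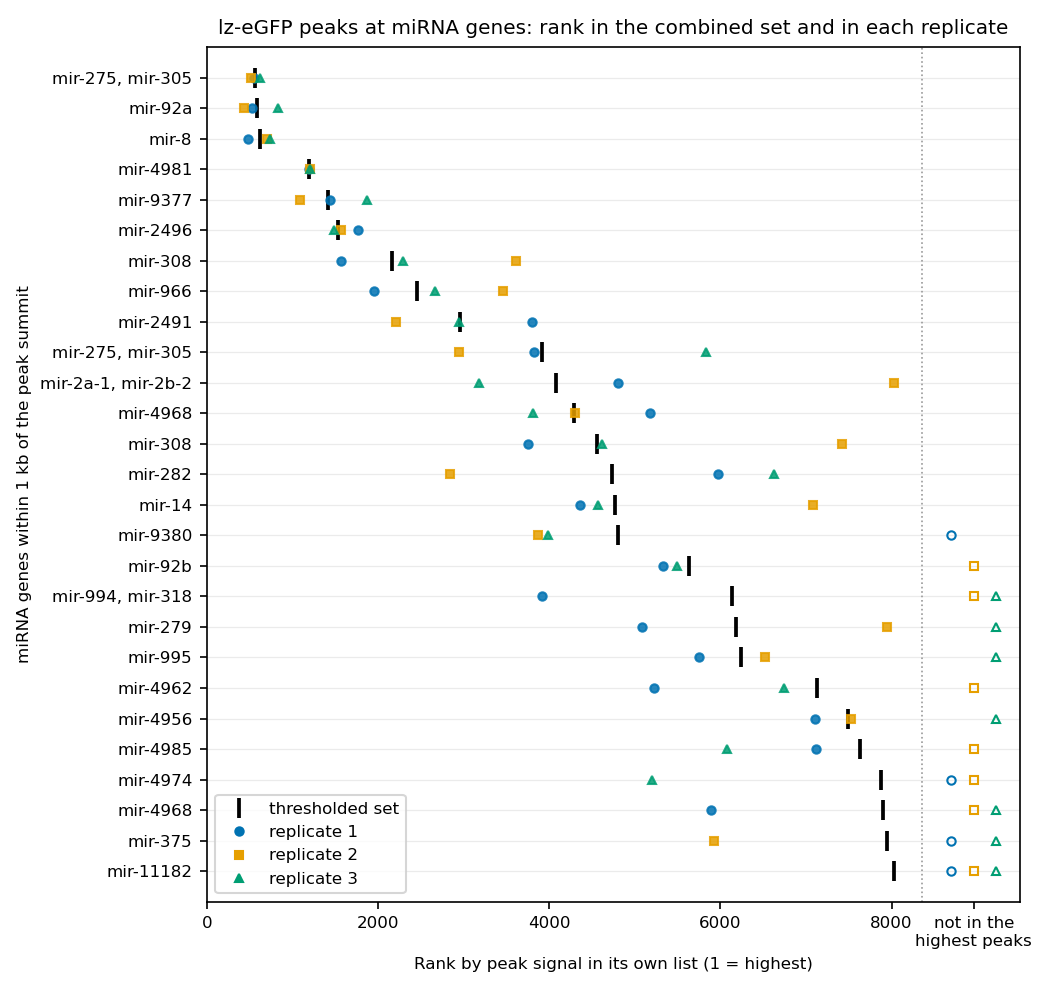
Rank by signal (horizontal axis, 1 = highest) of the 27 thresholded peaks within 1 kb of a miRNA gene, in the thresholded set (black bars) and in each replicate's 8048 highest peaks (coloured symbols), with open symbols at the right for a replicate without a summit within 100 bp among them. The 3 strongest peaks keep ranks between 430 and 834 in all replicates, and open symbols begin at thresholded rank 4805.

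Of the 27 summits, 13 (48.1%) lay within 500 bp of a TSS, 8 (29.6%) were intronic, 3 (11.1%) exonic and 3 (11.1%) intergenic, against 42.5%, 38.6%, 2.36% and 16.5% of all 8048 summits. The 13 promoter summits comprised 8 at a TSS of a host of the miRNA gene and 5 at a TSS of another gene. Counting each gene with each of its summits gave 31 pairs, with the summit upstream of the hairpin in 21, downstream in 9 and inside the gene in 1, mir-4962. A peak was within reach of more than 1 miRNA gene in 4 cases, and 4 genes (mir-275, mir-305, mir-308 and mir-4968) had 2 summits. Within 50 bp of the summit, the median G and C content was 37.6% at miRNA genes and 32.7% over all summits.

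**Figure D4:**
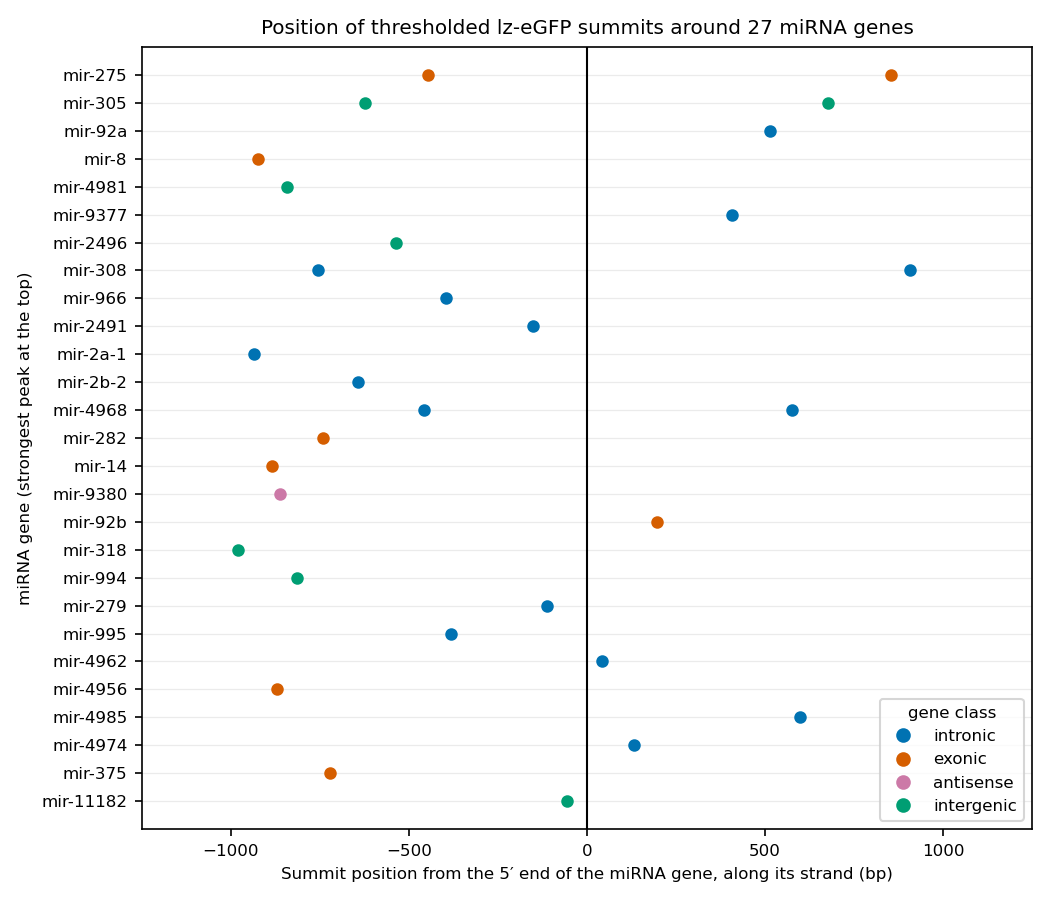
Position of each thresholded summit (bp) relative to the 5′ end of the miRNA gene along its strand, negative upstream, for the 27 genes ordered by their strongest peak and coloured by class. Points left of the line at 0 are the 21 pairs with the summit upstream, and the point nearest to the right of it is mir-4962, with the summit 43 bp into the gene.

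The strongest peak within reach of a miRNA gene belonged to the cluster of mir-275 and mir-305, miRNAs that act in egg maturation of mosquitoes and in the stem cells of the fly gut. Its summit (2L, 7425349) ranked 565 in the thresholded set and 549, 512 and 616 in replicates 1, 2 and 3. It lay 446 bp upstream of mir-275 (2L, 7425795 to 7425892) and 623 bp upstream of mir-305, in an exon of the lncRNA that hosts mir-275, lncRNA:CR43857. A weaker peak beyond the cluster, 216 bp upstream of the muc TSS, ranked 3912, with 3820, 2943 and 5826 in the replicates. Both were thus present in every replicate, and the ranks of the first varied less.

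The mir-92a and mir-92b genes lie within the host gene jigr1, a gene known to be expressed with them in neural stem cells. The peak of mir-92a (3R, 25646506 to 25646600) ranked 585, with 529, 430 and 834 in the replicates. Its summit was 421 bp past the hairpin and 225 bp upstream of a jigr1 TSS that lies beyond mir-92a. The peak of mir-92b (3R, 25651398 to 25651497) ranked 5628, with 5332 in replicate 1 and 5489 in replicate 3, while replicate 2 held it just past its highest 8048, at 8109 of the full list. The peak of mir-92a was therefore the stronger of the pair in each replicate.

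For mir-8 (2R, 16831432 to 16831518), which promotes body growth through insulin signalling in the fat body, the peak ranked 617, with 478, 699 and 741 in the replicates. Its summit was 924 bp upstream of the hairpin and 181 bp upstream of a TSS of the host lncRNA:CR43650. The gene mir-14 (2R, 9553762 to 9553824), known for limiting cell death and fat storage and for a feedback on the ecdysone receptor, had a peak of rank 4772, with 4355, 7076 and 4572 in the replicates. Its summit lay 32 bp past the TSS of its host lncRNA:CR43651. Likewise mir-282 (3L, 3251022 to 3251118) had a peak 314 bp upstream of a TSS of lncRNA:CR43626, of rank 4735, with 5973, 2844 and 6621 in the replicates. In these 3 genes the hairpin lies in an exon of a lncRNA and the peak stood at one of its starts, in all replicates.

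Among the miR-2 family, mir-2a-1 and mir-2b-2 shared 1 peak in an intron of spi, the gene of the EGF receptor ligand spitz. It ranked 4073 in the thresholded set but 4802, 8030 and 3173 in the replicates, so that replicate 2 held it only near the end of its list. The spi promoters carried 4 further summits in reach of a TSS, the strongest of rank 220. The family member mir-308 (2R, 14215802 to 14215864), in an intron of the ribosomal protein gene RpS23, had a peak of rank 2167 at 8 bp past an RpS23 TSS, with 1560, 3609 and 2293 in the replicates. A further peak 845 bp beyond mir-308 ranked 4555, with 3756, 7415 and 4618.

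The gene mir-279 (3R, 29215585 to 29215684), which keeps neurons that sense CO2 from forming in the maxillary palps, had a weak peak 111 bp upstream of rank 6184. It ranked 5088 in replicate 1 and 7944 in replicate 2, and in replicate 3 it was just past the highest 8048, at 8216 of the full list. The promoter of its host, lncRNA:CR31044, held a far stronger one, 108 bp upstream of the TSS, of rank 25 in the thresholded set and 22, 47 and 17 in the replicates. That summit is 1131 bp from mir-279 and so just outside the 1 kb window. The neighbour mir-996, of the same host and seed, had no thresholded summit, and its strongest pooled call, of rank 9162, had a match in the full lists of replicate 1 (11061) and replicate 3 (10435).

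Of the other genes with a peak in all 3 replicates, mir-4981 (rank 1190) and mir-2496 (1525, 193 bp upstream of lncRNA:CR45478) were intergenic. The intronic ones were mir-9377 (1419) in Tis11, the gene of an mRNA decay factor, mir-966 (2449) at 58 bp upstream of Pfas, a gene of purine synthesis, mir-2491 (2959) in fog and mir-4968 (4294) in Mob2. The genes whose peak had no match among the highest 8048 of 1 replicate were mir-9380 (4805, upstream of the autophagy gene Atg13), mir-995 (6240, 82 bp upstream of Cdk2), mir-4962 (7124) in Tlk, mir-4956 (7487) in Sxl, the master gene of sex determination, and mir-4985 (7628) in Fatp3. The full list of the remaining replicate held the first (8639 in replicate 1), mir-995 (9285 in replicate 3) and mir-4956 (11598 in replicate 3), but not mir-4962 or mir-4985 in replicate 2. The shared peak of mir-994 and mir-318 (6139, 37 bp upstream of CG6325) was among the highest 8048 of replicate 1 alone (3917). By the 1 kb rule, the highest 8048 of replicate 1 reached mir-994 but not mir-318, and those of no other replicate reached mir-318. The peak of mir-4974 (7878) was among the highest 8048 of replicate 3 alone (5204) and that of mir-375 (7945) of replicate 2 alone (5929). The full lists added a match to the shared peak of mir-994 and mir-318 in replicate 3 (8899). They also added mir-4974 in replicates 1 (11535) and 2 (22923), and mir-375 in replicates 1 (10728) and 3 (8867). A second peak of mir-4968, of rank 7901 and 40 bp upstream of a Mob2 TSS, was matched in replicate 1 alone (5894), also in the full lists. The peak of mir-11182 (8024), 64 bp upstream of CG5726, had no match among the highest 8048 of any replicate, and ranked 18317 in the full list of replicate 1 and 10160 in that of replicate 3.

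Clusters had peaks in 5 of 22 cases and single genes in 18 of 183. A cluster holds several genes and so offers more room for a summit. By gene, 9 of the 79 clustered genes had a peak, against 10.3% of all miRNA genes. The clusters with a peak were mir-275 with mir-305, the spi cluster of mir-2a-2, mir-2a-1 and mir-2b-2, mir-92a with mir-92b, mir-994 with mir-318, and mir-279 with mir-996. A pooled call reached 12 of the 22. The largest cluster, the 12 genes from mir-972 to mir-979 on the X, had no thresholded summit nearer than 4087 bp, and the 8 genes of the mir-309 cluster none nearer than 7110 bp.

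Many peaks lay along the lncRNA hosts but outside the 1 kb window. Of 34 lncRNA hosts, 20 (58.8%) had a thresholded summit in the span or within 1 kb, against 23.8% of all 1947 lncRNA genes. These hosts were longer, with a median span of 6116 bp against 654 bp for lncRNA genes with no miRNA gene, which gives a summit more room. At the TSS, within 500 bp, 9 of the 34 hosts had a peak (26.5%, interval 12.9 to 44.4), against 11.5% of all lncRNA genes and 23.4% of all genes other than miRNA genes. The replicates gave 11, 7 and 9 such hosts, and leaving a replicate out gave 6 to 8. The median number of TSSs was 1 in both kinds of lncRNA gene. The hosts of mir-8, mir-282 and mir-276a, however, had peaks at more than 1 TSS. The part that the number of TSSs plays in the share was not tested. The 20 hosts had 64 distinct peaks in the span or within 1 kb of it. Of these, 8 lay within 1 kb of a miRNA gene of the host and 56 farther away. Upstream of the nearest such gene lay 54, though how much of each host lies upstream of its hairpins was not measured.

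Besides the promoter of lncRNA:CR31044, the strong peaks were those of the hosts of mir-8, mir-282, mir-276a and bantam. The host of mir-8 had a peak of rank 117, which ranked 113 in replicate 1, 145 in replicate 3 and higher than both in replicate 2, 3036 bp from the hairpin. That of mir-282 had one of rank 127 (131, 106 and 129) 2205 bp away. A peak of rank 161 (214, 154 and 139) lay 36384 bp from mir-276a, and one of rank 410 (375, 483 and 436) lay 1448 bp upstream of bantam, in an exon of its host lncRNA:CR43334. That host had 7 peaks in its span or within 1 kb of it, ranked 410 to 5548 and each found in all replicates. None lay within 1 kb of the bantam hairpin.

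The let-7 cluster, mir-100, mir-let7 and mir-125, has a role in the timing of metamorphosis and is made from lncRNA:let7C. Its nearest thresholded summit was 2625 bp upstream of mir-100, so by the 1 kb rule none of the 3 genes had a peak. The host held 7 peaks. The strongest (rank 1356, with 1047, 1918 and 1298 in the replicates) lay in an intron 7671 bp from mir-100. The peak at the host TSS ranked 5294, with 4669 in replicate 2 and 3690 in replicate 3, and replicate 1 had a summit of rank 5503 there, 127 bp from it and so past the 100 bp that count as a match. The hosts of mir-1, mir-124 and of the pair mir-277 and mir-34 had no thresholded peak.

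**Figure D5:**
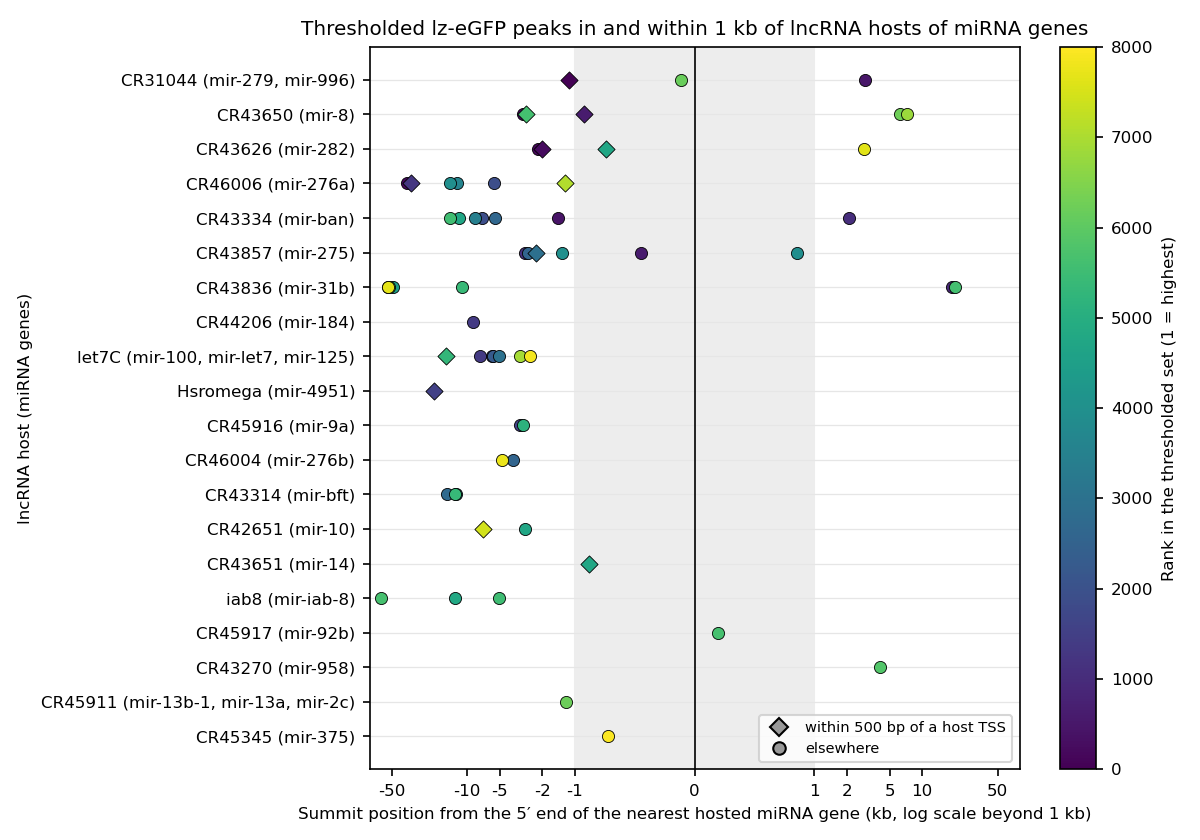
Thresholded lz-eGFP summits in the span or within 1 kb of the 20 lncRNA hosts that have any, placed by the distance (kb) from the 5′ end of the nearest hosted miRNA gene along its strand, with the 1 kb window shaded and the scale logarithmic beyond it. Colour gives the rank and diamonds mark summits within 500 bp of a host TSS; of the 64 distinct peaks, 8 are within 1 kb of a hosted miRNA gene and most of the rest lie upstream.

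Protein-coding hosts of intronic miRNA genes had a peak at a TSS in 42 of 99 cases (42.4%, interval 32.5 to 52.8), against 26.9% of all protein-coding genes, with 44, 31 and 43 in the replicates. Leaving out replicate 1 gave 24 hosts and leaving out replicate 3 gave 22. Over the span and 1 kb the shares were 64.6% of these hosts and 38.1% of all protein-coding genes. The hosts had a median of 2 TSSs and a span of 14358 bp, against 1 TSS and 2142 bp for protein-coding genes with no miRNA gene, and the part that size plays in the shares was not tested. Of these 42 hosts, 34 had no peak within 1 kb of their miRNA gene. Among these 34, the strongest was at bun, which holds mir-967 and had a peak of rank 138 at 371 bp upstream of a TSS. PAPLA1, the host of mir-4984, followed with rank 335, and MRP, the host of mir-9382, with rank 344. The eye and wing miRNA mir-7 lies in HnRNP-K, whose TSS had a peak of rank 7918, matched in replicate 1 (5172) and, past the highest 8048, in replicate 3 (9630).

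Grouping well-studied miRNA genes by role gave counts to be read against the 10.3% of all miRNA genes. The groups are small and share members, and they were chosen with earlier results of these data known. The contrast with all miRNA genes is therefore descriptive only. Of 16 genes acting in growth and cell death, 4 had a peak (mir-2a-1, mir-2b-2, mir-14 and mir-308), with 4 in each replicate. The others, bantam, mir-2a-2, mir-2b-1, mir-2c, mir-6-1, mir-6-2, mir-6-3, mir-11, mir-13a, mir-13b-1, mir-13b-2 and mir-278, had their nearest summit between 1214 bp (mir-2c) and 17866 bp (mir-278) away. Of 6 genes of metabolism and insulin signalling, 4 had a peak: mir-8, mir-14, mir-305 and mir-375. The replicates gave 3, 4 and 3, with mir-375 among them in replicate 2 alone, and mir-33 and mir-278 had none. Of 7 ecdysone and timing genes, mir-8 and mir-14 had one, and mir-let7, mir-100, mir-125, mir-34 and mir-252 did not.

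Of 7 genes of sense organs and the eye, mir-279 had a peak, while mir-996, mir-9a, mir-7, mir-263a (mir-bft), mir-263b and mir-184 had their nearest summit 1710 to 8887 bp away. None of the 4 Hox cluster genes (mir-10, mir-993, mir-iab-4, mir-iab-8), of the 5 of muscle and nerve (mir-1, mir-124, mir-276a, mir-276b, mir-277) or of 16 genes in clusters on the X had a thresholded peak. The X genes, which are mir-972 to mir-979, mir-982, mir-983-1, mir-983-2, mir-984, mir-303, mir-283, mir-304 and mir-12, had their nearest summit between 1953 and 25684 bp away. In replicate 1, though not in replicates 2 and 3, a summit of rank 4600 lay within 1 kb of mir-34 and of mir-277. It matched a pooled call of rank 8648, whose summit was 141 bp upstream of mir-34.

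Outside the thresholded set, 65 further miRNA genes had a summit in the pooled list within 1 kb, with best ranks from 8268 to 29463, and 25 of them had a call in each full replicate list. The first 12 by rank were mir-4957 (8268), mir-4944 (8359), mir-277 and mir-34 (8648), mir-274 (8825), mir-996 (9162), mir-980 (9346), mir-4967 (9591), mir-4949 (10474), mir-iab-8 and mir-iab-4 (10611, shared) and mir-2492 (10917). Of genes outside the thresholded set, 11 had a summit in the highest peaks of at least 1 replicate, and only mir-2501 had one in 2. The highest 8048 calls of the pooled list held 27 distinct calls at miRNA genes, and the next 8048 held 40.

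The genes that make and use miRNAs were counted by the same rule. A longer gene offers more room for a summit, and the part that length plays in their share was not tested. Of 13 genes of the pathway, 9 had a summit in the span or within 1 kb, against 38.1% of protein-coding genes, with 9, 5 and 9 in replicates 1, 2 and 3. They were gw, the Argonaute partner GW182 (rank 1259), Cbp20 (2250) and Cbp80 (5674) of the cap-binding complex, the hairpin exporter Ranbp21 (2581), AGO1 (2594), Ars2 (3362), the exonuclease Nbr (4376), Fmr1 (5228) and the uridylating enzyme Tailor (5549). The nuclease genes drosha and Dcr-1 and the partner genes pasha and loqs had none. In replicate 2, AGO1, Ars2, Cbp80, Fmr1 and Tailor lacked a peak among the highest 8048 and loqs had one. Leaving out replicate 1 or replicate 3, which requires a match in replicate 2, left 4 genes, and leaving out replicate 2 kept 9. Of 4 genes of the small interfering RNA pathway, r2d2 (649) and Hen1 (2236) had a peak and Dcr-2 and AGO2 did not.

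Of the 27 peaks at miRNA genes, 12 (44.4%) held at least 1 of the 10 searched motifs, against 40.2% of all 8048 summits. Within 50 bp of the summit and on both strands, the Runx consensus RACCRCA, where R is A or G, occurred at 1 of the 27 peaks (3.7%), that of mir-14, against 2.68% of all 8048 summits. TATCGATA, the site of the DNA replication-related element factor, occurred at 3 (11.1% against 1.6%): the peaks of mir-994 with mir-318, mir-995 and mir-11182. These 3 summits all lay within 100 bp of the TSS of a protein-coding gene and ranked 6139, 6240 and 8024. GGTCACACT, the motif of the promoter factor M1BP, occurred at 2 (7.41% against 0.721%), at RpS23 beside mir-308 and between mir-305 and muc. CGATAT occurred at 2 (7.41% against 5.65%), those of mir-995 and mir-11182, and in 1 of them, mir-995, it overlapped TATCGATA. That site counts under both motifs. The GATA site WGATAR, where W is A or T, occurred at 5 (18.5% against 22.2%).

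GAGAG (9% of all summits) and CACGTG (0.621%) each occurred at 1 peak, in both cases that of mir-4962, and CAGGTAG (0.311%) at 1, that of mir-308. CAGCTG (3.03%) and AGGTCA (1.8%) occurred at none of the 27. With so few peaks, 1 match more or less moves each share by 3.7 percentage points.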

How the data were processed

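ChIP-seq peak lists of 3 biological replicates, of the pooled replicates and of the thresholded set were used on dm6. Per the labels, chromatin was sonicated and the fusion protein was precipitated with an antibody to GFP. The authors deposited a signal value for each peak. Each replicate and pooled list was derived from the replicate alignments and 1 further file common to all, per the deposited file lists. The sources used here name no aligner or peak caller and do not say how signal was scaled, so it served for ranks inside a list. The −log10 q-value deposited by the authors is 4.22 for each thresholded peak at a miRNA gene and played no further part. Without read counts in the lists, the depth of the libraries cannot be given. The thresholded summits were checked to equal the 8048 highest pooled ones.

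Genes came from Ensembl models on dm6, with transposon and mature-miRNA entries left out. Any same-strand gene that is not a miRNA gene could be a host. Members, gene lists and named genes were chosen with earlier results of these data known. Named were each gene with a thresholded summit within 1 kb, the first 12 by rank with a pooled but no thresholded summit, and the members of the lists by role; of the hosts, those named were chosen after their values were seen. Of the list symbols, bantam, let-7, mir-263a and nbr were matched through RefSeq names. RefSeq held mature sequences for 260 of the 262 genes, and for all 27 with a peak. No test was made, since there is 1 group; shares stand beside the background over other genes, with exact binomial intervals and the spread between replicates. The labels give each replicate its own biosample. The functions that assign summits, classes and loci were tested on simulated data. Alternatives covered the distance, interval in place of summit, strength, list, matching distance, locus gap, host strand, motif window and leaving out each replicate. The work used Python 3.11.15, numpy 2.4.6, scipy 1.17.1 and matplotlib 3.10.9.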

Additional observations from a re-analysis of the deposited data

How the results depend on the processing

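The counts moved with the distance allowed. With a summit in the gene span alone there were 1 gene with a peak, 1 locus, 1 distinct peak, 1 intronic gene and 0 intergenic genes. Within 500 bp there were 13 genes, 12 loci, 14 peaks and 1 intergenic gene, and the 10 intronic genes stayed within 1.5 times the main count of 13. Within 2 kb there were 53 genes, 41 loci, 55 peaks, 26 intronic and 11 intergenic genes, and within 5 kb 116, 95, 169, 60 and 17. The share of other genes of at most 200 bp moved likewise, to 0.639% for the span alone, 6.51% within 500 bp, 31.7% within 2 kb and 49.9% within 5 kb, and in each setting run the miRNA share was the lower. The 4024 strongest peaks gave 10 genes, 9 loci, 10 peaks, 5 intronic and 3 intergenic genes, 20 hosts of intronic genes with a TSS peak, 5 pathway genes and 8.17% of other short genes. All pooled calls gave 92 genes, 75 loci, 130 peaks, 43 intronic and 21 intergenic genes. Replicates 2 and 3 alone each had 3 intergenic genes, and replicate 2 alone 5 pathway genes.

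Leaving out a replicate gave 16 to 18 genes, 14 to 16 loci, 16 to 18 peaks, 8 to 10 intronic genes and 3 intergenic genes each time, since a peak then had to be matched among the 8048 highest of both remaining replicates. It gave 22 to 31 hosts of intronic genes, 4 to 9 pathway genes, 6 to 8 lncRNA hosts and 9.83% to 11.6% of other short genes. Of the 27 genes, 15 kept a peak in each of these settings, 7 in some and 5 (mir-375, mir-4974, mir-11182, mir-994 and mir-318) in none. Searching 100 bp to either side of the summit raised the peaks with a motif to 19 (70.4%, against 66.6% of all summits). The alternatives for the lncRNA hosts, hosts of intronic genes, pathway genes and other short genes were chosen after seeing the data. Of 103 alternatives, 48 stayed within 1.5 times the count, or within the replicate SD for the share of short genes. No paired analysis was possible because there is 1 group. Read depth is unknown, so a gene without a peak may lie below what these libraries could detect.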
